A study of Mus musculus with 24 samples.

Results

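The DNA replication and mitosis genes described here were chosen by symbol: minichromosome maintenance (Mcm), origin recognition (Orc) and Gins genes, cyclins A to H, Cdk, Cdc and Cks genes, polymerases alpha, delta and epsilon, clamp loader (Rfc) and Rpa genes, and ribonucleotide reductase genes. Bub, Aurk, Plk, Cenp, Smc, Top2 and Anapc genes were added, with Mki67, Tk1, Ube2c, Pcna, Tyms and Birc5, while Cdc42 and its relatives were left out. By this rule 124 genes were on the array, and the 100 with at least 2 values on each of 8 days are the members, out of 5660 genes tested. They were measured in HBC-3 cells, a mouse hepatoblast line, on 24 arrays: 3 each, lettered A, B and C, for day 0 and for days 1 to 7 on Matrigel, a basement membrane extract that forms a gel. Day 0 cells were undifferentiated, had been separated from their STO feeder fibroblasts by trypsin and replating on plastic, and were harvested the next morning. The Cy3 channel of every array held a common pool of undifferentiated HBC-3 cells, so on day 0 arrays both channels held such cells. HBC-3 is 1 cell line, and the labels do not say if the 3 arrays of 1 day are 3 cultures.

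Replication begins when origin recognition proteins and Cdc6 load the Mcm helicase onto chromatin, after which cyclin-dependent kinases fire the origins and the polymerases, with their clamp loader and a supply of deoxynucleotides, copy the DNA. Mitosis then needs cyclin B with Cdk1, Polo and Aurora kinases, centromere proteins, condensin and cohesin, and ends when the anaphase-promoting complex, with its ubiquitin-conjugating enzyme Ube2c, marks cyclins for degradation. Many of these transcripts are made in dividing cells and are low in resting ones, and liver cells commonly leave the cycle as they mature.

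Values are log2 ratios of sample over reference. The deposited table states neither the base nor the numerator, and this reading rests on the dyes in the labels and on the range of the values. Arrays held 12328 to 22149 values. Day 0 array C correlated with day 0 array A at -0.36 over the units tested, and array B with array A at 0.78. Counts against day 0 are therefore repeated below with all day 0 values multiplied by -1 (signs turned), and with array C alone turned. The C arrays of days 4 to 7 stood apart: array C of day 4 correlated with array C of day 5 at 0.97, and with arrays A and B of day 4 at 0.52 and 0.51. Bulk RNA cannot tell fewer dividing cells from less of these transcripts per cell.

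From day 2 on, 33 to 41 of the 100 members were lower than at day 0, against 4 on day 1, a day 1 count that moved widely with the fit. The median member changed by -0.16, -0.58, -0.60, -0.57, -0.59, -0.61 and -0.55 (log2) on days 1 to 7, while the median of all 10639 units tested (genes and unnamed features) stayed between -0.02 and 0.04. On day 1, 4 members were lower than at day 0 and 3 higher (limma, Benjamini-Hochberg adjusted p under 0.05), beside 5.92% of all units lower and 4.99% higher. On day 2, 38 members were lower and 5 higher, beside 8.04% and 9.05% of all units. Day 3 had 41 lower and 3 higher, beside 12.3% and 12.2%, and day 4 had 33 lower and 3 higher, beside 10.9% and 11.3%. There were 33 lower and 3 higher on day 5, beside 11.2% and 11.7%, and 40 lower and 5 higher on day 6, beside 12.6% and 12.2%. On day 7, 38 members were lower and 5 higher, beside 13% and 14.6% of all units. The share of members that fell was thus near or under that of all units on day 1 and above it on each of days 2 to 7. The largest falls on day 7 were those of Cks2 and Rrm2, and the largest rises those of Cdk8 and Cdk19.

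The day 1 count was 43 lower and 17 higher with array weights, beside 28.2% and 31.2% of all units. It was 18 lower with arrays scaled to 1 spread, beside 14.7%, and 13 with only days 0 and 1 in the fit, beside 11.9%. With day 0 signs turned, the members called lower numbered 0, 19, 22, 18, 18, 27 and 22 on days 1 to 7, beside 2.82%, 5.42%, 6.43%, 7.53%, 6.81%, 9.17% and 5.74% of all units. Those called higher then numbered 0, 1, 1, 1, 0, 2 and 0. With day 0 array C alone turned, 6, 36, 38, 31, 34, 37 and 32 were lower on days 1 to 7. All units gave 8.52%, 10.8%, 14.1%, 13.2%, 12.7%, 13.2% and 15.1% lower there. The members higher numbered 4, 6, 5, 5, 4, 7 and 4, beside 7.51%, 11.9%, 14.2%, 12.8%, 12.9%, 12.8% and 15% of all units. Against the reference channel in place of the day 0 arrays 5, 47, 47, 46, 47, 49 and 46 were lower, beside 8.49%, 12.2%, 15.8%, 16.6%, 17%, 19.3% and 17.4%. Leaving out day 0 array B gave the lowest counts on most days, 0, 17, 23, 20, 21 and 23 on days 1, 2, 3, 4, 5 and 7, beside 1.45%, 3.34%, 5%, 5.14%, 5.03% and 6.49%. On day 6 the lowest count, 25, came without day 6 array C, beside 8.42%.

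Many single calls rested on few arrays. Of 33 named members called on day 7, 19 were not called with day 0 signs turned, among them Cks2, Tk1, Mcm2, Mcm3, Pold1, Cdk8, Cdk19 and Cdk5rap3, and 14 were. Without day 7 array C 12 were lost: Tk1, Anapc10, Ccnd2, Cdc34, Mcm2, Cenpx, Cenps, Rpa3, Pold2, Rrm1, Smc1a and Smc6. Without day 0 array B 11 were lost: Tk1, Anapc10, Cdc25a, Ccnd2, Cenpx, Cenpf, Cenps, Rpa3, Rrm1, Smc1a and Smc6. Without day 0 array A 8 were lost, Anapc10, Cdc25a, Ccnd2, Cenpf, Cenps, Rpa3, Smc1a and Smc6, and without day 0 array C 5, Tk1, Anapc10, Cenpf, Rrm1 and Smc1a. Without day 7 array A Anapc10, Cenpf and Smc1a were lost, and without day 7 array B Cdc25a, Cenpf and Rrm1. All 7 named calls of day 1 were lost or reversed with day 0 signs turned. Without day 0 array A or B 6 of these 7 were lost, all but Cdk8, and without day 1 arrays A, B and C in turn 5, 4 and 5.

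**Figure D1:**
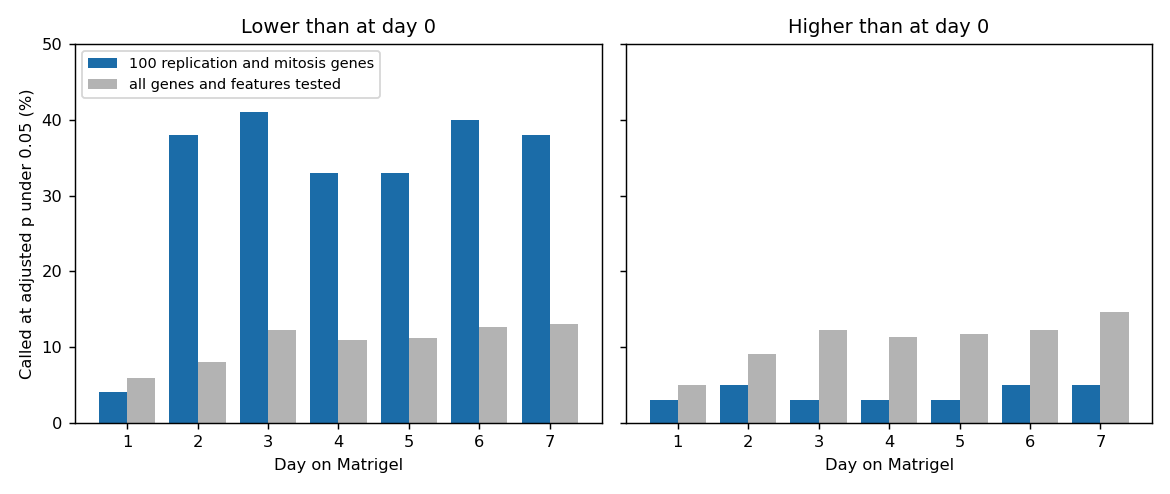
Percentage of the 100 members (blue) and of all 10639 units tested (grey) called lower (left) or higher (right) than at day 0 on each day, at an adjusted p under 0.05. The members' bars stand at 4% lower on day 1 and between 33% and 41% lower on days 2 to 7, and at 3% to 5% higher throughout.

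Of the 100 members, 53 were lower than at day 0 on at least 1 day, beside 21% of all units, and 24 on each of days 2 to 7, beside 4.3%. Another 8 were higher on at least 1 day, beside 20.4%, and 39 were called in neither direction on any day, beside 58.6%. Of the members called lower on day 7, 30 had also been called lower on day 2 and 8 had not, and 8 were called on day 2 and not on day 7. An F-test of any change over the course called 30 members, beside 16.3% of all units. With the day 0 signs turned it called 18, beside 1085 of 10639 units. Leaving out array A or B of day 0 gave 18 and 14 calls. Calls over all units fell without these arrays too, as seen in the day 7 comparison with day 0. There 8.42% and 6.49% of all units were lower, beside 13% in the main fit.

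**Figure D2:**
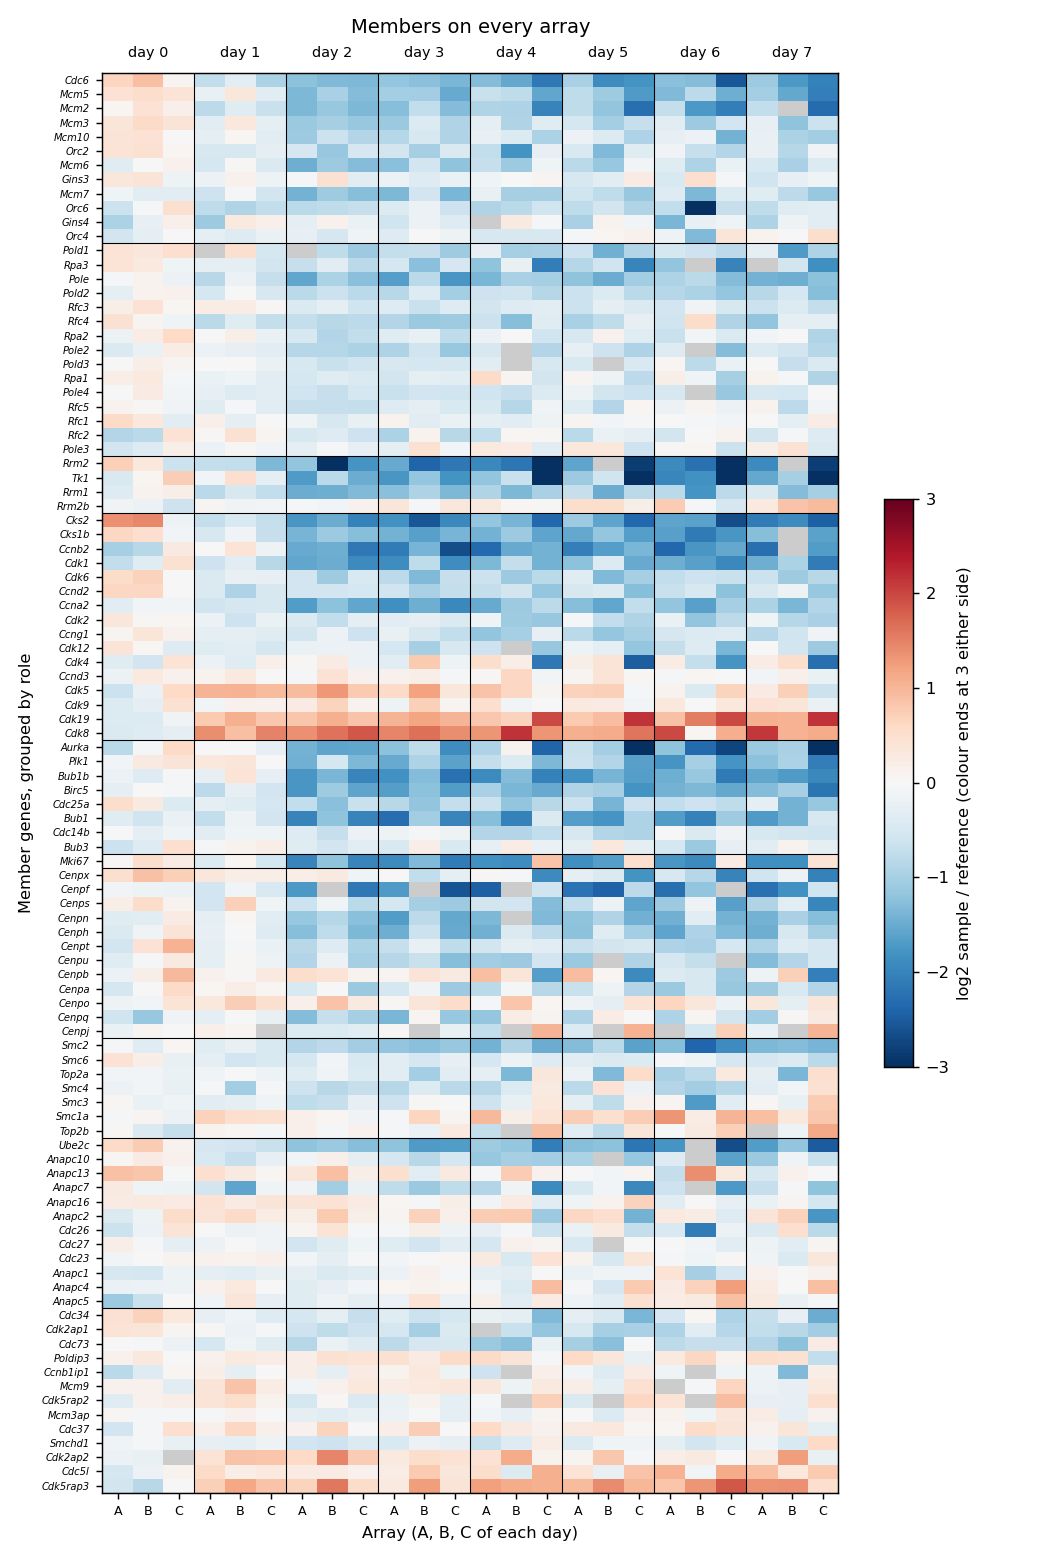
Centred log2 sample over reference of the 100 members (rows, grouped by role) on the 24 arrays (columns, days 0 to 7, arrays A to C), red above and blue below the reference, grey for no value. Blue deepens at day 2 in rows of the licensing, polymerase, cyclin and mitotic kinase blocks, with Cdc6, Cks2, Cks1b and Ccnd2 already blue on day 1, and Cdk8, Cdk19 and Cdk5rap3 are red from day 1.

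The 6 markers of cycling cells were on the array and tested. Cdc6, which loads the helicase at origins, had -1.10, -1.73 and -2.02 (log2 sample over reference, arrays A, B and C) on day 7, against 0.65, 0.90 and 0.09 on day 0 arrays. It fell by 1.22 ± 0.34 (SE) on day 1 and by 2.16 ± 0.34 on day 7 (adjusted p = 0.0248 and 0.000142). No array of days 1 to 7 overlapped the day 0 arrays, and between days 2 and 7 its values ran between -2.55 and -0.98.

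Rrm2, the small subunit of ribonucleotide reductase in S phase, had -1.91 and -2.84 on day 7 arrays A and C, with no value on array B, against 0.72, 0.31 and -0.65 on day 0 arrays. Its change was -1.06 ± 0.50 on day 1 (adjusted p = 0.201), -2.18 ± 0.50 on day 2 (adjusted p = 0.00634) and -2.50 ± 0.56 on day 7 (adjusted p = 0.00347). The day 0 arrays spread widely, but all stood above the day 7 arrays. Tk1, the cytosolic thymidine kinase, read -1.54, -1.0 and -3.70 on day 7, against -0.47, 0.05 and 0.74 on day 0. It read -0.07, 0.51 and -0.30 on day 1, within the day 0 range, and was 2.19 ± 0.67 lower on day 7 (adjusted p = 0.0193), with array C far below the other day 7 arrays and a change of -1.38 without it (adjusted p = 0.132).

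Cks2, a small subunit that binds Cdks, had the largest fall of all members. Its day 7 arrays read -2.10, -1.88 and -2.44, against 1.37, 1.45 and -0.16 on day 0, and it fell by 3.03 ± 0.41 (adjusted p = 4.04e-05). On day 1 it fell by 1.51 ± 0.41 (adjusted p = 0.023), and with the day 0 signs turned the day 1 change became 0.26 and the day 7 change -1.25 (adjusted p = 0.0538). Ube2c gave -1.68, -1.19 and -2.50 on day 7 and 0.56, 0.75 and 0.09 on day 0. Its change was -1.06 ± 0.34 on day 1 (adjusted p = 0.0518), -1.67 ± 0.34 on day 2 (adjusted p = 0.00253) and -2.26 ± 0.34 on day 7 (adjusted p = 0.000129), and no array of days 1 to 7 reached the lowest day 0 array.

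Mki67, the Ki-67 antigen of cycling cells, split by array. Day 7 gave -1.83, -1.85 and 0.40, against 0.02, 0.52 and 0.25 on day 0. On days 4 to 7 the C arrays lay between 0.24 and 0.85 and the A and B arrays between -1.90 and -1.64. Its change of -2.04 ± 0.72 on day 3 passed the threshold (adjusted p = 0.0433), and that of -1.36 ± 0.72 on day 7 did not (adjusted p = 0.162).

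**Figure D3:**
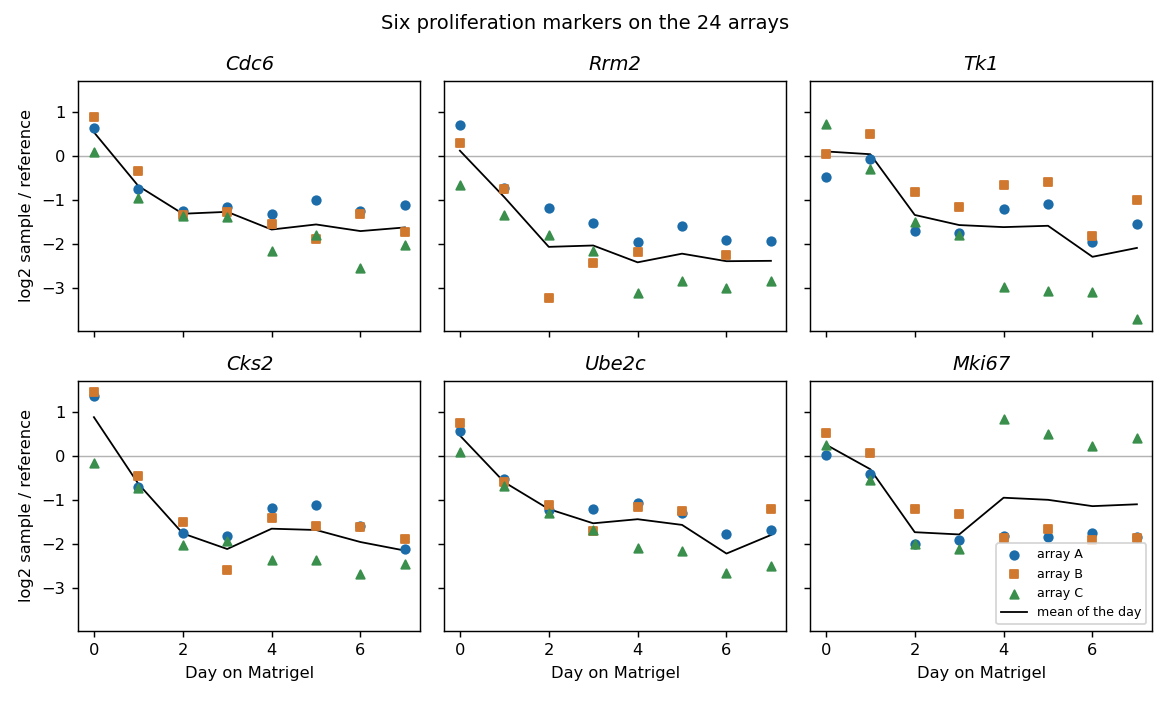
Centred log2 sample over reference of the 6 markers on every array, with days on the x axis, a symbol per array letter and a line through the mean of each day. Cdc6, Cks2, Ube2c and Rrm2 descend over days 1 and 2 and stay low, Tk1 on day 1 lies within the day 0 range, and the C arrays of Mki67 lie apart from arrays A and B from day 4, at 0.24 to 0.85.

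Among the 12 tested genes of origin licensing and the helicase, 1 was lower on day 1, 8 on day 2 and 5 on day 7, and none was called higher on those days. Their median change was -0.49, -1.08 and -0.61 on days 1, 2 and 7. Counts by role on these days, here and below, stand beside 5.92%, 8.04% and 13% of all units lower. The shares of all units higher were 4.99%, 9.05% and 14.6%. Besides Cdc6, the subunits Mcm5, Mcm2 and Mcm3 of the helicase changed by -1.99 ± 0.30, -1.73 ± 0.47 and -1.15 ± 0.27 on day 7, all past the threshold. Mcm2 had no value on day 7 array B, and its change was -0.95 without array C (adjusted p = 0.216). Mcm5 read -1.03, -1.53 and -2.06 on day 7, against 0.43, 0.52 and 0.41 on day 0, and -0.22, 0.34 and -0.31 on day 1. All its day 7 arrays lay below all arrays of both other days. Mcm6 and Mcm7, of the same ring, were lower on day 2, by 1.20 ± 0.30 and 1.00 ± 0.30, and had changes of -0.53 and -0.51 on day 7 that did not pass (adjusted p = 0.189 and 0.197). Gins4, of the complex that activates the helicase, had the smallest day 7 change, -0.13 ± 0.39.

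Of 15 polymerase, clamp loader and Rpa genes, 0 were called in either direction on day 1 by limma, 8 were lower on day 2 and 5 on day 7. The catalytic subunits Pold1 and Pole fell by 1.38 ± 0.33 and 1.33 ± 0.25 on day 7. Pole, the leading-strand polymerase, read -1.41, -1.46 and -1.23 on day 7, against -0.02, 0.10 and -0.18 on day 0, with narrow groups that did not overlap. Rpa3, a subunit of the single-strand binding protein, and Pold2, an accessory subunit of polymerase delta, fell by 1.38 ± 0.48 and 0.86 ± 0.22. Rpa3 had no value on day 7 array A, and its change was -0.73 without array C (adjusted p = 0.384). Rfc2, of the clamp loader, changed by 0.09 ± 0.33, and its partner Rfc3 fell by 0.81 ± 0.19 (adjusted p = 0.00358).

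In nucleotide supply, the large reductase subunit Rrm1 fell by 1.39 ± 0.28 on day 2 and 0.87 ± 0.28 on day 7. Rrm2b, the alternative small subunit known as a p53 target, rose by 0.99 ± 0.26 on day 7 (adjusted p = 0.0085). Its day 7 arrays read 0.29, 0.85 and 0.94, against -0.09, -0.17 and -0.61 on day 0, so the 2 small subunits stood on opposite sides of their day 0 level. The Rrm2b rise was called on day 7 alone. With day 0 signs turned it was 0.40 (adjusted p = 0.353), and with day 0 array C alone turned 0.58 (adjusted p = 0.112).

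**Figure D4:**
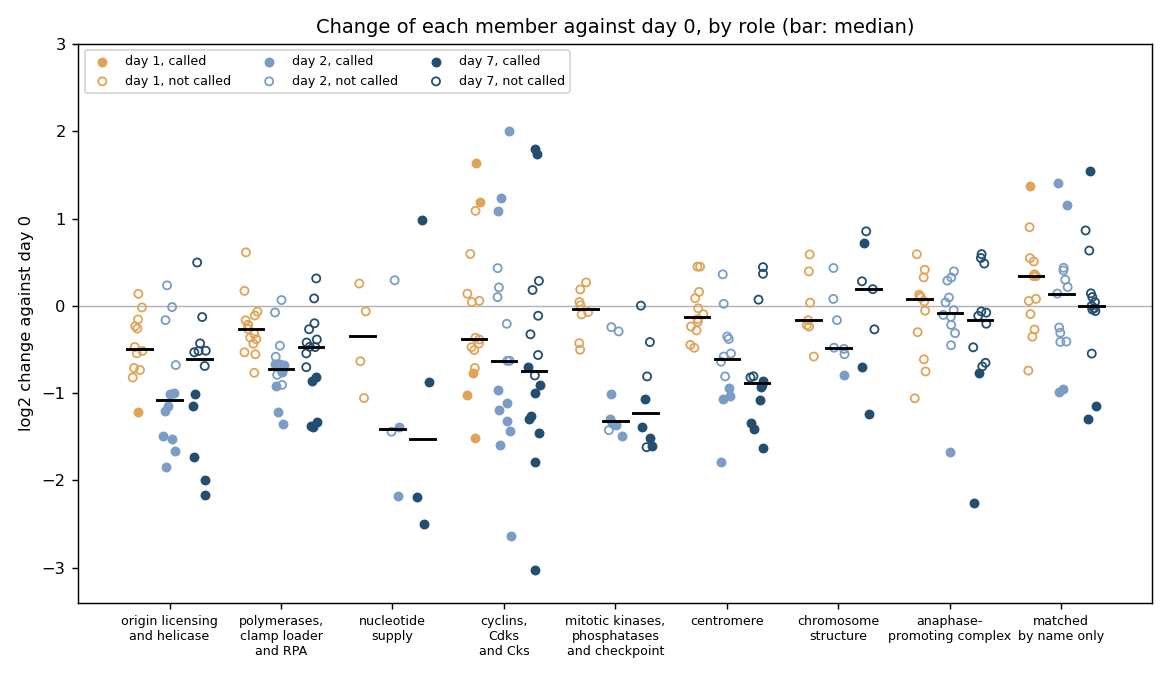
Log2 change against day 0 of each member on days 1, 2 and 7, by role, with filled points for an adjusted p under 0.05 and bars for the median (Mki67, alone in its role, is not drawn). The medians of the mitotic kinase and centromere genes are near 0 on day 1 and at -1.32 and -0.61 on day 2, while that of the licensing genes is already at -0.49 on day 1.

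Cyclin, Cdk and Cks genes were called in both directions, the higher calls being those of Cdk8, Cdk19 and Cdk5 alone. Of 16 tested, 3 were lower and 2 higher on day 1, 7 lower and 3 higher on day 2, and 8 lower and 2 higher on day 7. All units gave 5.92%, 8.04% and 13% lower and 4.99%, 9.05% and 14.6% higher on these days. The share called higher on day 7 was thus no larger than that of all units. Cks1b, the paralogue of Cks2 that helps destroy the inhibitor p27, fell by 0.77 ± 0.23 on day 1 and 1.79 ± 0.26 on day 7. Ccnd2, cyclin D2, was 1.02 ± 0.29 lower on day 1 and 0.99 ± 0.29 lower on day 7, so its change was about as large on day 1 as on day 7. Its 6 array features differed from day 0 by -1.70 to -0.22 on day 7. Ccnb2, a B-type cyclin of mitosis, read -2.27 and -1.69 on day 7 arrays A and C, against -0.99, -0.82 and 0.27 on day 0, and stood at -0.01, 0.40 and -0.15 on day 1. Cdk1, the kinase that cyclin B activates, fell by 1.29 ± 0.36 on day 7. Ccnd3 had the smallest day 7 change, -0.11 ± 0.21.

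Cdk8 and Cdk19, paralogous kinases of the Mediator complex and not of the cycle engine, rose on every day. Cdk8 read 2.12, 1.05 and 1.11 on day 7, against -0.44, -0.39 and -0.29 on day 0, a rise of 1.80 ± 0.37 (adjusted p = 0.00145), and had risen by 1.63 ± 0.37 on day 1. Cdk19 read 1.07, 1.05 and 2.18 on day 7, against -0.40, -0.41 and -0.11 on day 0, a rise of 1.74 ± 0.38 (adjusted p = 0.00221). The 5 array features of Cdk19 differed from day 0 by 1.54 to 2.20 on day 7, all upwards. With day 0 signs turned the day 7 changes were 1.05 for Cdk8 and 1.12 for Cdk19 (adjusted p = 0.069 and 0.0571). Cdk5, best known from neurons, rose by 1.09 ± 0.37 on day 2 (adjusted p = 0.0455) and was at 0.18 ± 0.37 on day 7 (adjusted p = 0.742).

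The mitotic kinases, phosphatases and checkpoint genes had a median change of -0.03 on day 1, with 0 of 8 called by limma. On day 2 the median was -1.32 with 5 lower, and on day 7 it was -1.23 with 4 lower. Plk1, the Polo kinase of mitotic entry, read -1.24, -0.96 and -2.07 on day 7, against -0.07, 0.26 and 0.38 on day 0. It had 0.33, 0.36 and 0.01 on day 1, within the day 0 range, and -1.44, -0.54 and -1.35 on day 2. Bub1b, of the spindle checkpoint, gave -1.56, -1.69 and -1.93 on day 7 and -0.18, -0.39 and -0.06 on day 0, a fall of 1.52 ± 0.29 (adjusted p = 0.000787). Birc5 (survivin), of the chromosomal passenger complex, and Cdc25a, the phosphatase that activates Cdks, fell by 1.39 ± 0.29 and 1.07 ± 0.29. The 3 array features of Cdc25a differed from day 0 by -1.46 to 0.01 on day 7. Bub3, of the same checkpoint as Bub1b, had a day 7 change of 0.00 ± 0.29.

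Of 12 centromere genes, 4 were lower on day 2 and 7 on day 7, and none was called on day 1, when their median change was -0.12. Cenpx and Cenps, histone-fold partners, fell on day 7 by 1.62 ± 0.51 and 1.34 ± 0.43, Cenpf, a kinetochore protein, by 1.41 ± 0.51, and Cenpn, which reads the centromeric nucleosome, by 1.08 ± 0.29. Cenpx read -0.59, -0.18 and -2.03 on day 7, against 0.47, 0.89 and 0.72 on day 0, with array C well under the others and a change of -1.08 without it (adjusted p = 0.138). The 2 array features of Cenpf differed from day 0 by -1.53 and -0.08 on day 7. Cenpo changed by 0.07 ± 0.29.

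Among 7 genes of chromosome structure, the condensin subunit Smc2 fell by 1.24 ± 0.25 on day 7, with -1.36, -1.29 and -1.40 against -0.05, -0.35 and 0.07 on day 0. Its partner Smc4 had a change of 0.19 ± 0.32, and its 3 array features ran in both directions, from -0.71 to 0.69. Smc6, of the Smc5/6 complex, fell by 0.70 ± 0.20, with its 7 array features between -1.85 and 0.18. Smc1a, of cohesin, rose by 0.72 ± 0.27 (adjusted p = 0.0484), a call that was lost without centring, with the day 0 signs turned and without any 1 of the day 0 arrays. The 2 features of Top2a, topoisomerase II alpha, differed from day 0 by -0.73 and 0.87 on day 7.

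Most subunits of the anaphase-promoting complex did not pass. Of 12 genes, 2 were lower on day 7, beside 13% of all units, and none was higher, beside 14.6%. These 2 were Ube2c and Anapc10, and Anapc10 fell by 0.77 ± 0.28 (adjusted p = 0.0446). The Anapc10 call was lost without any 1 of the day 0 arrays and without day 7 array A or C. The median change of the 12 was 0.07, -0.08 and -0.16 on days 1, 2 and 7. Cdc23, a scaffold subunit, had the smallest day 7 change, -0.06 ± 0.24, and Anapc5 rose on day 6 alone among the days tested, by 1.06 ± 0.29 (adjusted p = 0.0121).

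A further 13 members match by name but have other known roles, and their median day 7 change was 0.00. Cdc34, a ubiquitin-conjugating enzyme of the Skp1-cullin system, and Cdk2ap1 fell by 1.30 ± 0.34 and 1.15 ± 0.22. Cdk5rap3, which takes part in ufmylation, rose on all 7 days, by 1.38 ± 0.33 on day 1 and 1.54 ± 0.33 on day 7, with 1.34, 1.37 and 0.51 on day 7 against -0.56, -0.84 and 0.00 on day 0. With day 0 signs turned its day 7 change was 0.61 (adjusted p = 0.263). Cdk2ap2 rose by 1.15 ± 0.37 on day 2 alone, and Cdk5rap2, a centrosome protein, was at 0.00 ± 0.31 on day 7.

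Between day 1 and day 2, 2 members fell in the fit of all 24 arrays, Ccnb2 by 1.79 ± 0.37 (adjusted p = 0.0286) and Bub1b by 1.68 ± 0.29 (adjusted p = 0.00708), beside 0.395% of all units lower and 0.207% higher. Either 1 or 0 members were called when any of the 6 arrays compared was left out. Within days 1 to 3, arrays of 1 letter deviated from their day means together (r of 0.194 to 0.441), a pairing read from these same data. The step was therefore also fitted on those days with the letter as a replicate block, a fit added after seeing the data. There 35 members were lower and 0 higher by limma, beside 3.98% and 3.58% of 10563 units. Without the block 19 were lower, beside 2.08% of 10639 units. Without day 1 arrays A and C in turn the blocked count was 14 and 13, and without day 2 arrays A and C 16 each. It was 21 without array B of day 1 or of day 2, and 45 without day 3 array B. Units called in either direction moved too, with 282, 259, 273, 282, 402, 399 and 1911 in these fits, in the same order. The full blocked fit called 798. The steps called ran from -0.46 to -1.79, and 76 of the 100 members stepped down.

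By role, the blocked step was called in 5 of 8 mitotic kinase and checkpoint genes, 7 of 12 licensing genes, 7 of 15 polymerase and clamp loader genes, 2 of 4 nucleotide genes, 5 of 16 cyclin, Cdk and Cks genes, 4 of 12 centromere genes and 1 of 12 genes of the anaphase-promoting complex. Mki67 dropped by 1.43 ± 0.12, with -1.98, -1.20 and -1.99 on day 2 against -0.41, 0.06 and -0.54 on day 1. Tk1 dropped by 1.38 ± 0.12, with -1.69, -0.82 and -1.50 against -0.07, 0.51 and -0.30. In both genes the day 2 arrays all lay under the day 1 arrays. Ccnd2, Cdk8 and Cdk19 stepped by 0.05 ± 0.13, 0.37 ± 0.18 and 0.04 ± 0.11, and none of these passed.

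After day 2 the median change stayed between -0.55 and -0.61. No member and no other unit was called in any step from one day to the next after day 2 (limma), and at an unadjusted p under 0.05 between 0 and 5 members passed in each direction. The blocked fits of these steps within days 1 to 3 and days 4 to 7 called 0 units as well. With 3 arrays a day, this does not show that levels were equal.

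Against day 1, 7 members were lower on day 7 and 0 higher by limma (1 at an unadjusted p under 0.05), beside 1.38% and 1.54% of all units. The differences were -2.06 ± 0.42 for Ccnb2, -1.70 ± 0.29 for Bub1b, -1.66 ± 0.34 for Plk1, -1.48 ± 0.30 for Mcm5, -1.02 ± 0.26 for Cks1b, -1.0 ± 0.25 for Smc2 and -0.75 ± 0.19 for Rfc3. The count was 3, 1 and 4 without day 1 arrays A, B and C, and 3 and 2 without day 7 arrays A and C. Days 5 to 7 against days 1 to 3 called 4 members lower, Smc2, Ube2c, Cenpx and Cks1b, by 0.66 ± 0.14, 0.75 ± 0.21, 0.97 ± 0.29 and 0.53 ± 0.14, and 0 higher (2 at an unadjusted p under 0.05). All units gave 4.23% lower and 3.51% higher there, so the members' share was near the background. This fit took all arrays as independent, though arrays of 1 letter deviated together within days 1 to 3 and within days 4 to 7. The SEs of this comparison may thus be too small. On days 4 to 7 all C values of Cenpx and Ube2c lay below all A and B values, while those of Smc2 and Cks1b overlapped. Leaving out 1 array gave 1 to 9 members, with 1 or 2 without any array of days 1 to 3 except day 3 array B. Without array B of days 6 and 7 it gave 7 and 9. No share of all units is given for the left-out fits of both comparisons. Their counts therefore cannot be read as changes of the members alone.

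The C arrays of days 4 to 7 lay apart from arrays A and B in many units, so this was no trait of the members alone. In 10 members all C values lay above all A and B values and in 21 below, beside 12.9% and 14.2% of all units. Cdk4 averaged -2.15 on the C arrays and 0.19 on arrays A and B, Tk1 -3.21 and -1.23, and Aurka, the Aurora A kinase, -2.89 and -1.02. Mki67 averaged 0.50 on the C arrays and -1.81 on arrays A and B, and Top2a 0.41 and -0.82. The median difference over members was -0.04. Without these 4 arrays 8, 47, 52, 38, 35, 36 and 38 members were lower on days 1 to 7. The shares of all units lower were then 10.7%, 14.7%, 17.7%, 12.7%, 11.8%, 14.4% and 14.2%.

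**Figure D5:**
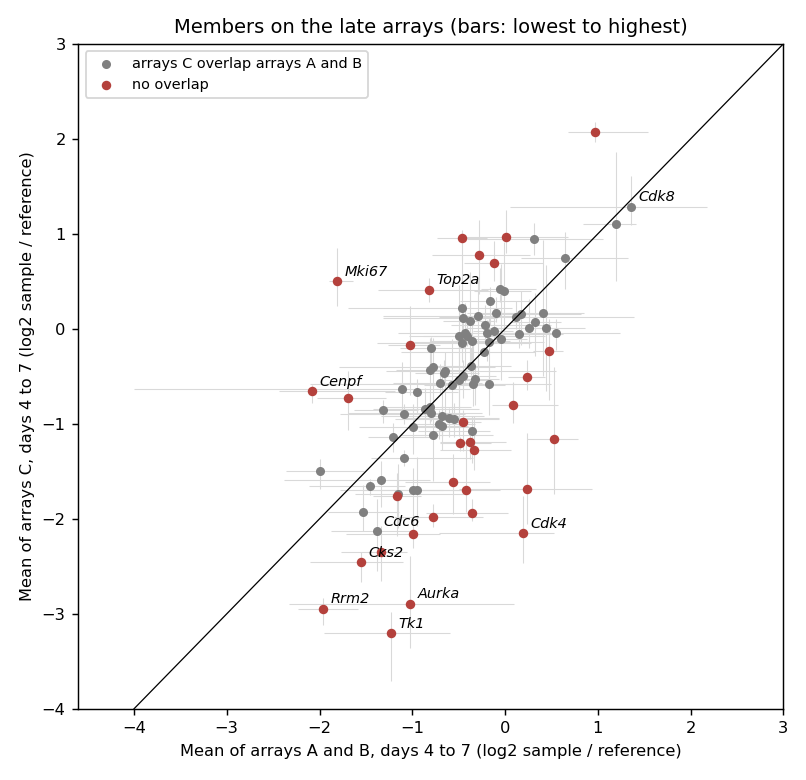
Mean of the C arrays (y axis) against mean of arrays A and B (x axis) over days 4 to 7 for each member, log2 sample over reference, with bars from the lowest to the highest array and red for members without overlap. Mki67 lies above the line of equality, Tk1, Aurka and Cdk4 lie below it, and Cks2, Cdc6 and Rrm2 are low on both axes.

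Genes of the cycle outside the name rule were taken from lists. Of 42 S phase genes listed, 19 were tested, and 2, 10 and 8 were lower on days 1, 2 and 7, with none higher and median changes of -0.37, -0.95 and -0.58. Of 80 mitosis genes, 52 were tested, and 0, 29 and 28 were lower and 1, 1 and 1 higher, with medians of -0.09, -1.08 and -0.90. Among 22 tested regulators, 4, 6 and 6 were lower and 1, 1 and 3 higher, with medians of -0.33, -0.34 and -0.12. All units gave 5.92%, 8.04% and 13% lower and 4.99%, 9.05% and 14.6% higher on days 1, 2 and 7. The share of regulators called higher was thus near or under that of all units. The growth arrest gene Gadd45g changed by -3.52 ± 0.42 on day 7 and by -3.18 on day 1, both past the threshold, and E2f7, a repressor of E2F targets, fell by 2.39 ± 0.33. Kif23, a kinesin of cytokinesis, fell by 1.97 ± 0.31. Tipin, of the fork protection complex, fell by 1.96 ± 0.34. Mybl2, a transcription factor of the cycle, fell by 1.94 ± 0.32, and neither Mybl2 nor Gadd45g had a value on day 7 array C. The anti-proliferative Btg1 rose by 2.63 ± 0.27, Zwint, a kinetochore protein, by 1.96 ± 0.32, and Cul1 and Skp1, of the Skp1-cullin ligase, by 0.95 ± 0.31 and 0.74 ± 0.25.

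Markers of the line and of its feeder cells moved over the same days. Of 14 hepatoblast markers 7 were on the array and 3 tested (Afp, Igf2 and H19): 0, 1 and 3 were higher on days 1, 2 and 7. Their median per array ran between -0.41 and -0.16 on day 0, between 0.91 and 1.23 on day 2, between -1.14 (array C) and 2.56 on day 6, when 1 of the 3 was higher, and between 0.81 and 2.65 on day 7. Of 17 fibroblast markers 9 were tested, and 3, 6 and 3 were higher on days 1, 2 and 7. Their medians per array lay between -0.88 and 0.11 on day 0, between 0.77 and 1.10 on day 2 and between -0.09 and 0.50 on day 7. They did not move as 1 group. On day 7 Dcn, Pdgfrb and Prrx1 were called higher, by 6.06, 1.82 and 0.95. Col5a1, Col5a2 and Col6a2 changed by -0.16, -0.71 and -0.52, and Col1a2, Col3a1 and Col6a1 lay above 0, none of these called. Beside both lists, 4.99%, 9.05% and 14.6% of all units were higher on days 1, 2 and 7. The part of these markers in the members' fall was not tested.

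Since many members moved together, their promoters were searched on both strands for letters known from cell cycle genes: the cell cycle homology region (CHR, written TTTGAA or TTCGAA), the nuclear factor Y box CCAAT, and the E2F letters TTTGGCGC, TTTCCCGC, TTTCGCGC and TTTGCCGC. RefSeq promoters of GRCm38.p6, 250 bases before to 50 bases after the start, were found for 89 of the 100 members. CCAAT stood in 61.8% of member genes, beside 41.1% of all 27025 genes with a promoter, the CHR letters in 28.1%, beside 21.7%, and the E2F letters in 19.1%, beside 2.6%. E2F letters were in 6 of 11 licensing genes, 5 of 13 polymerase and clamp loader genes, 1 of 8 mitotic kinase and checkpoint genes and 0 of 11 anaphase-promoting complex genes. CHR letters were in 5 of 8 mitotic kinase and checkpoint genes, 3 of 11 licensing genes and 2 of 13 polymerase and clamp loader genes. Among the 35 members lower on day 2 that had a promoter, 74.3% held CCAAT and 34.3% E2F letters, and among the 54 others 53.7% and 9.26%. These matches are a description of the letters in this window, not sites.

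The promoters of 4 markers and of Ccnb2 and Bub1b, the members called between days 1 and 2, show the arrangements, with matches in capitals. They lie at chr11:98907901-98908200 (plus strand, Cdc6), chr13:51644982-51645281 (plus, Cks2), chr2:164769679-164769978 (plus, Ube2c), chr7:135716330-135716629 (minus, Mki67), chr9:70421505-70421804 (minus, Ccnb2) and chr2:118597961-118598260 (plus, Bub1b) of GRCm38.p6.
Cdc6: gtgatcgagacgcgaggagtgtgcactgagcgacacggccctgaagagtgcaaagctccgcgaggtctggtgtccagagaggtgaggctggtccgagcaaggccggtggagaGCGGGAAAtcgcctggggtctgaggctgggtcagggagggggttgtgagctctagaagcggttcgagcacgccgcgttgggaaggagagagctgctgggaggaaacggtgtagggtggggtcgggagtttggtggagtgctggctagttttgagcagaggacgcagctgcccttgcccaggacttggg
Cks2: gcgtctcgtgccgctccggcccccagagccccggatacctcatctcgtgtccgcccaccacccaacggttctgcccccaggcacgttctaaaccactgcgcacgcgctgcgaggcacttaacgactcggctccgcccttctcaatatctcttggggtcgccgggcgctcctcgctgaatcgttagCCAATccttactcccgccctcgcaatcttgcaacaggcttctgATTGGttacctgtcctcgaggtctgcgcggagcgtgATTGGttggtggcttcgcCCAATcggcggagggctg
Ube2c: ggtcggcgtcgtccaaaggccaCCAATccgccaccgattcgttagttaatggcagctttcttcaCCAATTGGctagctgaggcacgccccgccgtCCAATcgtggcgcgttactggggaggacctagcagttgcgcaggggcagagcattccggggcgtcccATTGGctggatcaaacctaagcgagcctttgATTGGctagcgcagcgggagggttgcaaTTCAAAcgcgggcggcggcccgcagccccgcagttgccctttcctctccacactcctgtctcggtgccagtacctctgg
Mki67: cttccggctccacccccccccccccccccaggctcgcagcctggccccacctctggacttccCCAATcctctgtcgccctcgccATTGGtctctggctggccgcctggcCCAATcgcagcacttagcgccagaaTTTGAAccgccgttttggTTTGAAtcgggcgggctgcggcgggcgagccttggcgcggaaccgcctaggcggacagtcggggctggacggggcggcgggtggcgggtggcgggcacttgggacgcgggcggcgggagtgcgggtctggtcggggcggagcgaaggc
Ccnb2: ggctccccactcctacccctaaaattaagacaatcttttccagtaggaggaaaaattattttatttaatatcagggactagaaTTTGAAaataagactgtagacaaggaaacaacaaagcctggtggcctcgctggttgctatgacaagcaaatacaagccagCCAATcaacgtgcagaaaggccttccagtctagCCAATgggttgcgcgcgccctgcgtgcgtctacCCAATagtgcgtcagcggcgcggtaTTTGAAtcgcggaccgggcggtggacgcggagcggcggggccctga
Bub1b: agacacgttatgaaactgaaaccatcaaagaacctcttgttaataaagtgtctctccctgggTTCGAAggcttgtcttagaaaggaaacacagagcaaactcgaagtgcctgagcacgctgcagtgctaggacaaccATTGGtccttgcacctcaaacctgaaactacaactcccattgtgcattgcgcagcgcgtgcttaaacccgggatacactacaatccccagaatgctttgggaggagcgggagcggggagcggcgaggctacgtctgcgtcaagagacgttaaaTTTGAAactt

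Cdc6 holds a single E2F match and no CCAAT, Cks2 holds 4 CCAAT matches, and Ube2c holds 6 CCAAT matches, 2 of them overlapping, with CHR letters between them and the start. Mki67 and Ccnb2 each hold 3 CCAAT and 2 CHR matches, and Bub1b 1 CCAAT and 2 CHR matches, including 1 of each form. Among the 8 promoters looked at in this way, Rrm2 had 1 CCAAT match and Tk1 none of the letters.

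The 24 genes matched by name but not tested were Pcna, Tyms, Mcm4, Orc1, Prim2, Cdc7, Cdc20, Cdc123, Cdc14a, Cdc37l1, Cdc40, Cdk7, Cdk13, Cdk17, Cdk18, Cdk20, Plk5, Cenpe, Cenpk, Cenpl, Cenpm, Smc1b, Smc5 and Smcr8. Pcna, the sliding clamp, had 12 values, -0.73 on day 7 array C and -1.26 on day 2 array A, against -0.11, -0.09 and -0.14 on day 0. Cdc20, the activator of the anaphase-promoting complex, had 16 values, with -1.40 on day 7 array A and -1.07, -0.46 and -1.62 on day 2, against -0.15, 0.19 and 0.44 on day 0. Cenpk lay just outside the rule, with 1 value on day 6, and read -2.51, -1.59 and -1.63 on day 7, against -0.01, 0.15 and 0.00 on day 0. Smc5, Cenpl and Smcr8 were as near, and Anapc10, just inside with 2 values on days 5 and 6, is given above. For 50 tested members at least 2 array features gave a day 7 change, and in 39 of them all such features lay on the same side of day 0.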

How the data were processed

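The deposited values, 1 per array feature, are log ratios of the Cy5 sample target over the Cy3 target of undifferentiated cells, per the labels, and were taken as log2. Base, numerator, background correction and normalization are not given in the sources used. Of 24157 features, 13319 had 1 gene symbol, 589 several and 10249 were not listed; 13290 symbols were updated by Entrez identifier. Each array was centred on the median of its features, features of a gene were averaged, and the 10639 units with at least 2 values on each of 8 days were tested (5660 genes, 4979 unnamed features). All 24 arrays entered 1 limma model (limma 3.58.1, R 4.3.3, 2-sided) with Benjamini-Hochberg adjustment within each comparison at 0.05. The calculation was tested on simulated data. Columns left unused numbered 0.

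Named members are the 6 markers, up to 4 of each role past the threshold on day 7 and on day 1 by size, all called higher, all called between days 5 to 7 and days 1 to 3, and the smallest day 7 change of each role. Mcm6, Mcm7, Rfc3, Aurka, Cdk4, Top2a, Pcna, Cdc20 and Cenpk were named after their values were seen. Ccnb2 and Cdk1 were also named outside the rule for named members. The checks of single named calls on day 7 did not cover Ccnb2, Cdk1 or Rfc3, nor any gene outside the members. The members, lists and markers were chosen with earlier results of these data known. Array letters were checked as pairs: for arrays of 1 letter, deviations from day means had r of 0.194 to 0.441 inside days 1 to 3 (9 of 9 pairs over 0.1), 0.142 to 0.912 inside days 4 to 7 (18 of 18), and -0.544 to 0.46 between day 0 and later days (4 of 21), so letters were taken as pairs only inside the first 2 spans. P-values cover only the spread of these arrays, possibly a technical one, and 3 arrays a day limit precision. Alternatives covered centring, scaling, features, blocks, day 0 sign, array weights and left-out arrays.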

Additional observations from a re-analysis of the deposited data

Results flagged for a closer look

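The change against day 0 differed between day 7 and day 1 in 7 members, tested as day 7 against day 1 in the limma fit. The differences were -2.06 for Ccnb2 (adjusted p = 0.0103), -1.70 for Bub1b (0.00267), -1.66 for Plk1 (0.0107), -1.48 for Mcm5 (0.0102), -1.02 for Cks1b (0.0369), -1.0 for Smc2 (0.0302) and -0.75 for Rfc3 (0.0311).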

How the results depend on the processing

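Numbers here are members called lower by limma, and for the F-test members called in either direction. With the day 0 signs turned, days 1, 2, 3, 4, 5 and 7 gave 0, 19, 22, 18, 18 and 22, with the shares of all units given above. The F-test then gave 18, beside 1085 of 10639 units, and the day 1 change of Cks2 became 0.26. With arrays scaled to 1 spread, day 1 gave 18, beside 14.7% of all units. Day 7 against day 1 gave 3, beside 1.44%, and day 2 against day 1 gave 4, beside 0.912%. With only the compared groups in the fit, days 1, 4, 5 and 7 gave 13, 18, 19 and 21. All units gave 11.9%, 5.11%, 4.5% and 6.42% there. Day 7 against day 1 gave 3, beside 0.244%, and day 2 against day 1 gave 28, beside 2.43%. With the replicate block over all days, day 1 gave 8, beside 7.44% of all units, and day 7 against day 1 gave 18, beside 2.84%. Days 5 to 7 against days 1 to 3 gave 12, beside 8.39%, and day 2 against day 1 gave 4, beside 0.686%. Array letters were not taken as pairs between day 0 and later days. Units with a value on all 24 arrays gave 21 on days 4 and 5, beside 10.7% and 11.3% of such units. They gave 1 for day 2 against day 1, beside 0.396%. Without the C arrays of days 4 to 7, day 1 gave 8, beside 10.7%, and day 2 against day 1 gave 11, beside 1.05%. The F-test gave 46, beside 3166 of 10639 units. With array weights, days 1, 2 and 3 gave 43, 63 and 62, beside 28.2%, 30.7% and 31.3% of all units. Day 7 against day 1 gave 14, beside 3.65%, and days 5 to 7 against days 1 to 3 gave 7, beside 6.46%. Day 2 against day 1 gave 43, beside 7.52%, and the F-test 79, beside 7219 of 10639 units. Days 1 to 3 alone, added after seeing the data, gave 19 for day 2 against day 1, beside 2.08%, and 35 with the replicate block, beside 3.98%. Causes were not tested.

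Leaving out 1 array gave 0 to 7 on day 1, 17 to 28 on day 2, 23 to 32 on day 3, 20 to 32 on day 4, 21 to 31 on day 5, 25 to 38 on day 6 and 23 to 33 on day 7. The highest of these stood beside 7.75%, 9.82%, 13.1%, 12.1%, 11.1%, 13.5% and 10.6% of all units, and the lowest are given above with theirs. For day 3 the fit taken was that without day 0 array C, and for day 7 that without day 7 array A. For day 1, day 2 and day 4 it was that without day 0 array C. With 1 array left out, the F-test gave 14 to 34 and day 7 against day 1 gave 1 to 9. Days 5 to 7 against days 1 to 3 gave 1 to 9, and day 2 against day 1 gave 0 to 1. For the F-test and these 3 comparisons no share of all units is given, so the ranges cannot be read as changes of the members alone. Why some cells of the deposited table are empty is not stated in the sources used, so an empty cell was read neither as low nor as absent.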
